A study of Mus musculus with 192 samples.

Results

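Ccl2, Ccl7 and Ccl12 are 3 secreted chemokines of the mouse monocyte chemoattractant family. They were taken by gene symbol from a table of 23481 genes, 4720 of which passed the filter on low counts and were tested; the 3 chemokines passed. Messenger RNA was counted in dendritic cells grown from the bone marrow of female C57BL/6J mice aged 6 to 8 weeks with the growth factor GM-CSF at 15 ng/mL, plated at 100000 cells per well. The cells were exposed for 6 h to 7 ligands of innate immune sensors, called here by their label names: LPS (lipopolysaccharide), PAM, HMW, Zymosan (a depleted preparation), SeV, cGAMP (3',3'-cGAMP, a cyclic dinucleotide) and CpGB. All cells were of this strain and carried no deletion or transgene named in the labels, and doses were not used here. The libraries form 64 groups of 3: an untreated group (Ctrl), 7 single ligands, 21 pairs and 35 triplets, which is every pair and triplet of the 7. The labels do not say whether the 3 libraries of a group came from separate cultures or animals, so p-values measure only the spread between these libraries.

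The products of the 3 genes bind the receptor CCR2 and draw inflammatory monocytes out of the bone marrow and into tissue. Ccl2, also known as MCP-1, is the best known of them; Ccl7 (MCP-3) also acts through CCR1 and CCR3, and Ccl12 (MCP-5) is a rodent family member that acts through CCR2. Their transcription is switched on by microbial sensors through NF-kB and, to different degrees, through type I interferon and the transcription factors STAT and IRF. LPS is sensed by TLR4, which signals through both MyD88 and TRIF, and cyclic dinucleotides such as cGAMP are sensed by STING, which leads to interferon-beta.

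The genes lie in 1 cluster on the plus strand of mouse chromosome 11, each with 3 exons. In the GENCODE M21 annotation of mm10, Ccl2 spans chr11:82035571-82037453, Ccl7 chr11:82045712-82047525 and Ccl12 chr11:82101845-82103400. Ccl2 and Ccl7 are 8258 bases apart. Ccl7 and Ccl12 are 54319 bases apart, with Ccl11, an eosinophil chemoattractant, between them. The following 96 coding bases show how far the members differ at the messenger level, which is what the counts tell apart. The capitals mark the codons of the adjacent cysteines that define a CC chemokine.
Ccl2: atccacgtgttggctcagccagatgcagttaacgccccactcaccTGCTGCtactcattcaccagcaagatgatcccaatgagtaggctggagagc
Ccl7: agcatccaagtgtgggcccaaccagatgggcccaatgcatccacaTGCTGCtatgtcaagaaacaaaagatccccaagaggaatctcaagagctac
Ccl12: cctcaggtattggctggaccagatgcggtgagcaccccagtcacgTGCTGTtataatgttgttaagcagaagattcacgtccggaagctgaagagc
The sequences come from the reference transcripts. Over the aligned coding bases Ccl2 and Ccl7 were 65.6% identical, Ccl2 and Ccl12 68.0% and Ccl7 and Ccl12 68.3%. No run of 40 bases was shared between any 2 of the transcripts, and the longest identical runs were 23, 17 and 11 bases in the same order.

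Of the 3 promoters, the RefSeq table at hand (GRCm38.p6) held that of Ccl12. It is shown because Ccl12 was the member that departed from the other 2 in the results that follow. The 250 bases before its start, chr11:82101595-82101844 on the plus strand, hold a TATA motif in capitals, 31 bases before the start.
Ccl12 promoter: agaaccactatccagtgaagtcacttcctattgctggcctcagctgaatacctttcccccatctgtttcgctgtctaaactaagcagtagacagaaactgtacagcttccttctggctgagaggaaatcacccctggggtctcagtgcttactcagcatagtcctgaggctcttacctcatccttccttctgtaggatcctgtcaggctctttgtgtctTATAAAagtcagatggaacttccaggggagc
The letters TATAAA, searched on the sense strand, were in 7.59% of the 32851 promoters of the table. On either strand the window held 0 matches to an interferon-stimulated response element (GAAANNGAAA, in 2.98% of promoters), 0 to an NF-kB site (GGGNNNNNCC, 45.8%) and 0 to an AP-1 site (TGANTCA, 6.75%). These counts concern those letters in that window alone.

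Depth was low for RNA sequencing. Totals ran from 46564 to 610234 unique molecular identifiers (UMIs, 1 per original cDNA molecule) per library, with a median of 171616, and from 61823 to 89530 in Ctrl. Levels are given as CPM, UMIs scaled to a common library total, and 1 UMI was worth 9.60 to 13.9 CPM in Ctrl. Over all libraries Ccl2 gave 11800 UMIs, Ccl7 3132 and Ccl12 1515, and 0, 11 and 14 libraries held none of them. As checks of the labelled cell type, the summed markers of dendritic cells stood at 2756 to 3061 CPM in Ctrl (7 of 7 in the table, 4 of which passed the filter). The sum was carried by H2-Ab1 (1525 CPM), Cd74 (774), Itgax (421) and Ccr7 (196), whereas Flt3 stood at 4.62 CPM and Zbtb46 and Cd209a at 0 in Ctrl. Markers of macrophages, which GM-CSF cultures also hold, summed to 3704 to 3908 CPM in Ctrl (9 of 10 in the table), those of neutrophils to 528 to 734 (7 of 8) and those of monocytes to 274 to 374 (4 of 4). Markers of B cells, T cells and basophils or mast cells were at 0 in Ctrl. In bulk RNA, fewer cells of a type and less RNA per cell cannot be told apart.

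Of all libraries, 6 stood apart from both other libraries of their group by a chi-square test of their counts, with more than 2 chi-square units per degree of freedom against each. They were replicate 3 of PAM + HMW + SeV and the replicates numbered 1 of PAM + HMW + Zymosan, HMW + SeV + cGAMP, HMW + SeV + CpGB, HMW + cGAMP + CpGB and Zymosan + SeV + cGAMP. The outlying library of HMW + SeV + CpGB correlated at 0.934 with the group HMW + cGAMP + CpGB and at 0.911 with its own, and that of HMW + cGAMP + CpGB at 0.930 with HMW + SeV + CpGB and at 0.906 with its own. The outlying libraries of HMW + SeV + cGAMP and Zymosan + SeV + cGAMP resembled each other's groups in the same way, at 0.908 against 0.887 and at 0.924 against 0.899. The other two showed no such exchange: that of PAM + HMW + Zymosan was closest to LPS + HMW + Zymosan (0.934 against 0.928 with its own) and that of PAM + HMW + SeV to PAM + LPS (0.941 against 0.935). The cause was not tested. Labels were kept, and results that rest on these libraries are given with and without them.

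The first comparison asked which ligands alone raised each member over Ctrl. Ccl2 rose with LPS, SeV, cGAMP and CpGB, between 3.91-fold and 11.7-fold. Ccl7 rose with LPS, SeV and cGAMP. Ccl12 rose with LPS, SeV, cGAMP and CpGB. PAM, HMW and Zymosan alone raised none of the 3 past the test. Over all tested genes, the share called higher was 14.6% with LPS, 11.7% with cGAMP, 10.8% with CpGB, 10.5% with SeV, 8.01% with PAM, 4.43% with Zymosan and 0.953% with HMW.

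Ccl2 was present at a low level in Ctrl, at 27.7, 24.9 and 28.8 CPM in replicates 1, 2 and 3, which are 2, 2 and 3 UMIs. With cGAMP the libraries stood at 339, 304 and 325 CPM, with SeV at 277, 276 and 244, and with LPS at 194, 194 and 237. These 9 libraries lay above every Ctrl library, without overlap. With CpGB the values were 48.5, 123 and 120 CPM, also above Ctrl in each library. With PAM they were 39.4, 40.2 and 50.0, with HMW 41.6, 71.7 and 32.5, and with Zymosan 27.6, 38.4 and 46.7. Zymosan overlapped Ctrl, while the PAM and HMW libraries lay just above it. In the quasi-likelihood test of edgeR, adjusted by Benjamini-Hochberg over all tested genes, the log2 difference from Ctrl was 3.52 ± 0.50 (SE) for cGAMP (adjusted p = 1.25e-09, 11.7-fold), 3.23 ± 0.53 for SeV (adjusted p = 1.13e-07, 9.56-fold), 2.92 ± 0.54 for LPS (adjusted p = 2.11e-06, 7.76-fold) and 1.92 ± 0.62 for CpGB (adjusted p = 0.0142, 3.91-fold). PAM, HMW and Zymosan did not pass (edgeR adjusted p = 0.635, 0.808 and 0.784). In the order of means, from cGAMP (323 ± 17.8 CPM, SD, n = 3) through SeV (266 ± 18.9), LPS (208 ± 25.1) and CpGB (97.0 ± 42.0) to HMW, PAM and Zymosan, the only neighbours that differed in edgeR's test were LPS and CpGB (adjusted p = 0.0331).

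Ccl7 had 0 UMIs in the 3 Ctrl libraries. With cGAMP it stood at 110, 140 and 123 CPM, with LPS at 37.2, 27.7 and 40.3, and with SeV at 38.2, 23.0 and 37.5. CpGB gave 38.8, 10.2 and 18.4 CPM and HMW 8.32, 17.9 and 9.29. PAM (6.56, 0 and 0) and Zymosan (9.20, 6.40 and 0) left libraries with no UMI. Only the cGAMP libraries stood clear of all those of the other single ligands. Against a floor of 3 UMIs over the Ctrl group (11.7 CPM), and on UMIs pooled over the 3 libraries of each group, Ccl7 was at least 10.8-fold higher with cGAMP (edgeR adjusted p = 1.35e-06), at least 3.02-fold with LPS (adjusted p = 0.0104) and at least 2.86-fold with SeV (adjusted p = 0.0222). CpGB did not pass (edgeR adjusted p = 0.0875), although it did in a fit of Ctrl and CpGB alone (0.0178). cGAMP differed from its neighbour in the order, LPS (edgeR adjusted p = 0.00213), and no other neighbours differed.

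Ccl12 also had 0 UMIs in Ctrl. SeV gave 115, 161 and 164 CPM and cGAMP 193, 87.6 and 110, and these ranges overlapped. CpGB gave 38.8, 51.1 and 27.7 CPM and LPS 29.8, 38.8 and 22.4. HMW (8.32, 17.9 and 4.65), Zymosan (0, 6.40 and 9.33) and PAM (0, 5.03 and 0) stayed below 20 CPM. SeV raised Ccl12 at least 13.0-fold (edgeR adjusted p = 1.86e-08), cGAMP at least 10.4-fold (adjusted p = 2.6e-07), CpGB at least 3.32-fold (adjusted p = 0.00446) and LPS at least 2.54-fold (adjusted p = 0.0107). The step between neighbours that passed edgeR's test lay between cGAMP and CpGB (adjusted p = 0.00236). SeV and cGAMP did not differ beyond their spread (0.873), nor did CpGB and LPS (0.808). Of the 21 differences between single ligands, 13 passed for Ccl2, 10 for Ccl7 and 14 for Ccl12, against 18.8% over all tested genes and differences.

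**Figure D1:**
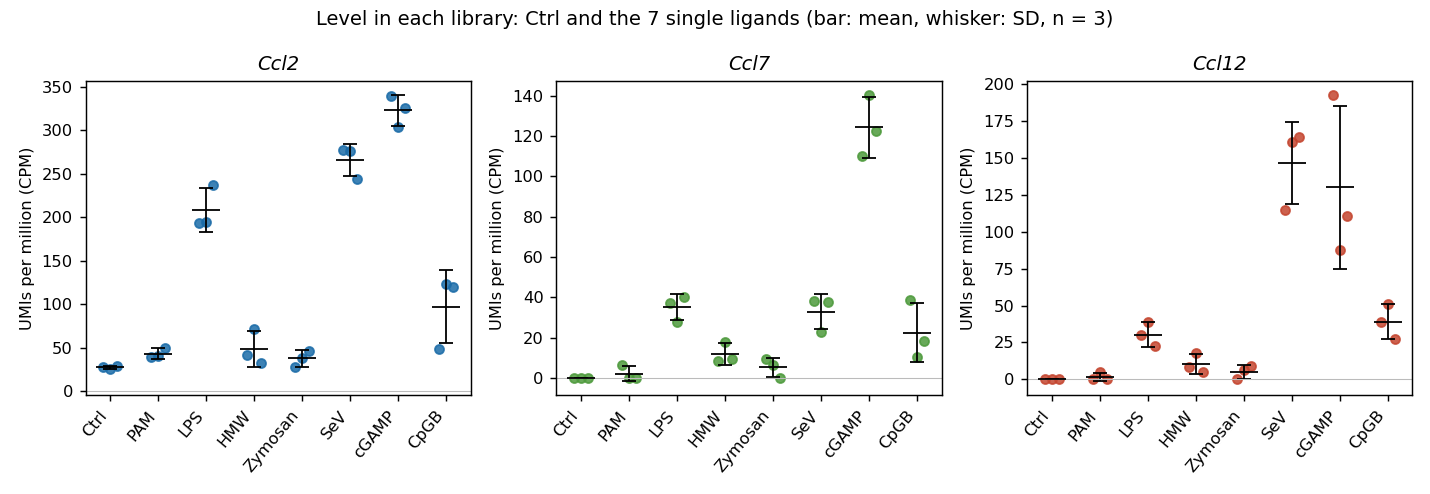
CPM of Ccl2, Ccl7 and Ccl12 (vertical axes, linear and separate) in each library of Ctrl and the 7 single ligands; dots are libraries, bars the mean and whiskers the SD of 3. The cGAMP libraries of Ccl7 (110 to 140 CPM) stand above all others, whereas for Ccl12 SeV and cGAMP are both high and LPS is low.

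Over all 63 conditions, Ccl2 was called higher than Ctrl in 54, Ccl7 in 50 and Ccl12 in 52, at an adjusted p under 0.05 in edgeR's test and a log2 difference of at least 1, against 14.3% of all tests of genes and conditions. A call below Ctrl was not possible for Ccl7 and Ccl12, with 0 UMIs there, and Ccl2 had only 7. Since every comparison shares the 3 Ctrl libraries, these counts are not independent. All 3 members were called in 48 conditions and none in 7, which were PAM, HMW, Zymosan, PAM + HMW, PAM + CpGB, HMW + Zymosan and PAM + HMW + CpGB. No condition of those 7 held LPS, SeV or cGAMP. A set of 2 members was called in 4 conditions (CpGB, HMW + SeV, PAM + HMW + Zymosan and PAM + Zymosan + SeV).

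The medians of the group means moved differently from single ligands to combinations. For Ccl2 they were 97.0 CPM over the single ligands, 224 over the pairs and 349 over the triplets. For Ccl7 they were 22.5, 52.9 and 87.1 CPM. For Ccl12 they were 30.3, 47.8 and 38.3 CPM, so the triplets' median lay below that of the pairs.

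The second comparison asked whether a pair gave more than either of its ligands. For Ccl2, 5 of 21 pairs exceeded both single ligands by at least 1 on the log2 scale with the larger p passing, for Ccl7 3 and for Ccl12 0, against 0.353% of all genes and pairs. Each of these pairs held cGAMP or LPS, and none held SeV or HMW.

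Ccl2 reached its highest pair level with PAM + cGAMP, at 953, 861 and 964 CPM (926 ± 56.3, SD), although PAM alone did not raise it past the test. This was 2.87-fold the level with cGAMP alone, a log2 excess of 1.52 ± 0.22 (SE; edgeR adjusted p over both singles = 1.61e-08). cGAMP + CpGB followed at 1044, 726 and 830 CPM (1.42 ± 0.22 over cGAMP, 2.69-fold, edgeR adjusted p = 2.93e-07). LPS + cGAMP gave 735, 906 and 754 CPM (1.31 ± 0.22 over cGAMP, 2.47-fold, edgeR adjusted p = 6.81e-06). In each of these 3 pairs, every library lay above every library of cGAMP alone. LPS + Zymosan (477, 299 and 520 CPM, 2.08-fold LPS alone, edgeR adjusted p = 0.00688) and LPS + CpGB (417, 465 and 395 CPM, 2.04-fold, adjusted p = 0.00859) lay just past the required difference, both at 1.01 ± 0.25. The lowest Ccl2 pair was PAM + CpGB at 35.6 ± 17.9 CPM.

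For Ccl7 the pairs above both ligands were LPS + Zymosan (161, 165 and 92.5 CPM; 1.98 ± 0.44 over the higher single, 3.98-fold, edgeR adjusted p = 0.00221), LPS + CpGB (136, 113 and 122 CPM; 1.78 ± 0.46, 3.54-fold, adjusted p = 0.0152) and cGAMP + CpGB (348, 222 and 287 CPM; 1.16 ± 0.33, 2.30-fold, adjusted p = 0.0248). cGAMP + CpGB was also the highest Ccl7 pair, at 286 ± 62.9 CPM and at least 24.0-fold over the Ctrl floor. The lowest was HMW + Zymosan at 8.49 CPM. Ccl12 reached its highest pair level with SeV + cGAMP, at 197, 121 and 181 CPM (166 ± 40.2), a range that overlapped those of SeV and of cGAMP alone. Its lowest pair was PAM + Zymosan, with 0 UMIs in the 3 libraries.

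No member fell below both single ligands in any pair by the mirrored rule (0.0504% of all genes and pairs). The pair mean lay above the higher single mean in 13 of 21 pairs for Ccl2, 11 for Ccl7 and 4 for Ccl12. Each pair mean was divided by the sum of both single means less the Ctrl mean. This ratio had a median of 0.960 for Ccl2, 0.840 for Ccl7 and 0.554 for Ccl12. Its ranges were 0.315 to 2.73, 0.285 to 3.46 and 0 to 1.21. It exceeded 1 in 10, 9 and 2 pairs.

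**Figure D2:**
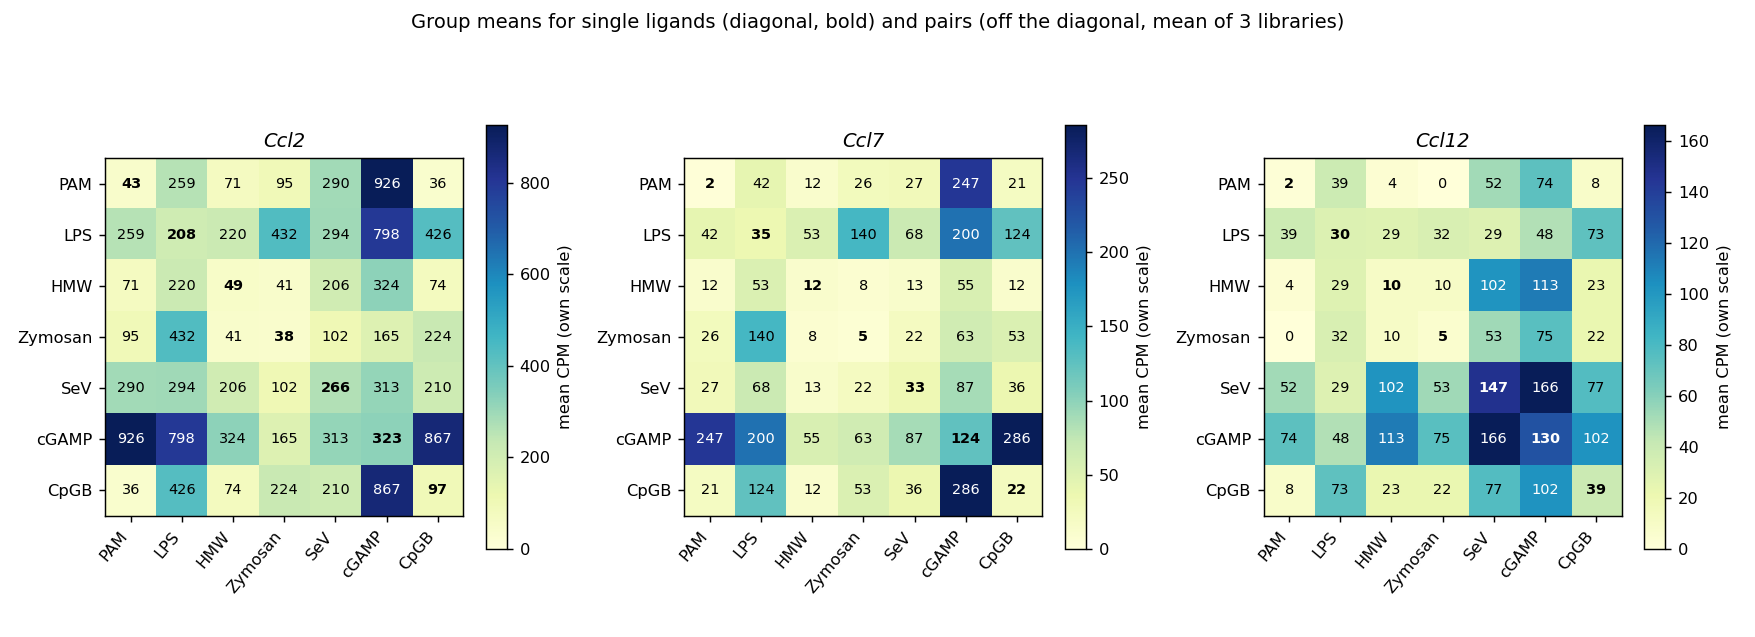
Mean CPM of 3 libraries for each single ligand (diagonal, bold) and each pair (off the diagonal, mirrored), 1 panel per gene with its own colour scale. The cGAMP row of Ccl2 peaks with PAM (926), CpGB and LPS, whereas in the LPS row of Ccl12 both SeV (29.4) and cGAMP (47.8) lie below the same ligand alone.

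A pair interaction compares the pair with the sum of both log2 effects, and every one uses the same Ctrl libraries. Negative interactions passed edgeR's test in 3 of 21 pairs for Ccl2, 1 for Ccl7 and 5 for Ccl12 (3.50% of all genes and pairs); no positive one passed for Ccl2 (1.08%). For Ccl7 and Ccl12 the Ctrl counts of 0 fix the fitted sign as negative, so a positive call was not possible. For Ccl2 the 2 most negative were SeV + cGAMP (-3.27 ± 0.61, edgeR adjusted p = 6.93e-06) and LPS + SeV (-2.74 ± 0.63, adjusted p = 0.000547). On the linear scale, Ccl2 in SeV + cGAMP stood at 304, 262 and 373 CPM, a mean of 313. The sum of the single ligand means less the Ctrl mean was 561. For Ccl7 the call was SeV + cGAMP (87.2 CPM against a sum of 157, edgeR adjusted p = 0.0210). For Ccl12 the 2 with the smallest p were SeV + cGAMP (166 against 277 CPM, edgeR adjusted p = 1.55e-05) and LPS + SeV (29.4 against 177 CPM, adjusted p = 7.83e-05). The other 3 were SeV + CpGB, LPS + cGAMP and cGAMP + CpGB. No size is given for Ccl7 and Ccl12, whose Ctrl counts of 0 leave the log2 interaction without a bound.

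The third comparison took each ligand over all the backgrounds it was added to, 22 in all: Ctrl, 6 single ligands and 15 pairs. cGAMP and LPS raised Ccl2 and Ccl7 in mean level in 22 of 22 backgrounds each. For Ccl12 cGAMP had the largest average rise and SeV the next, while PAM and Zymosan lowered it over the backgrounds in which it was counted. In the edgeR averages that follow, HMW moved none of the members past the test.

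Averaged over the 22 backgrounds in edgeR's test, the log2 effect on Ccl2 was 2.18 ± 0.06 (SE) for cGAMP (adjusted p = 1.67e-86; background share of genes called higher 28.2%), 1.64 ± 0.07 for LPS (1.2e-63; 29.6%), 0.95 ± 0.07 for SeV (2.68e-28; 20.6%), 0.79 ± 0.08 for CpGB (4.28e-19; 19.0%), 0.49 ± 0.08 for PAM (6.43e-09; 21.2%) and 0.22 ± 0.08 for Zymosan (0.0116; 21.3%). The last was lost over 20 backgrounds, without Ctrl and PAM + Zymosan (0.16, edgeR adjusted p = 0.0517). HMW did not pass (0.08 ± 0.08, adjusted p = 0.640; 7.94%). Because Ccl7 and Ccl12 have 0 counts in Ctrl, and Ccl12 also in PAM + Zymosan, their fitted effects over 22 backgrounds have no reliable size. They are given over the 21 backgrounds other than Ctrl, and for Ccl12 also over the 20 that leave out PAM + Zymosan as well, both chosen after the data were seen. The shares of all genes called higher over 21 backgrounds were 27.4% for cGAMP, 28.7% for LPS, 19.0% for SeV, 17.2% for CpGB, 19.9% for PAM, 20.4% for Zymosan and 7.61% for HMW.

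For Ccl7 the 21-background effects in edgeR's test were 2.73 ± 0.12 (SE) for cGAMP (adjusted p = 1.37e-59), 1.87 ± 0.13 for LPS (9.07e-33), 1.04 ± 0.16 for CpGB (1.88e-08), 0.77 ± 0.14 for SeV (2.29e-06), 0.64 ± 0.14 for Zymosan (4.78e-05) and 0.48 ± 0.15 for PAM (0.00505). Scaling and depth were varied over 22 backgrounds, where Ctrl at 0 UMIs leaves no reliable size. There PAM gave 0.54 with TMM (edgeR adjusted p = 0.0319) and 0.43 with library size alone (0.0769). In the main fit over these 22, PAM, Zymosan and CpGB gave 0.54, 0.74 and 1.21, each past the test. After thinning to equal totals they gave 0.35, 0.68 and 1.16, none past it. Neither comparison shows whether the 21-background effects hold under these settings. The order of the largest effects was the same as for Ccl2, with cGAMP first and LPS next. For Ccl12 they were 1.47 ± 0.15 for cGAMP (edgeR adjusted p = 1.81e-18), 1.08 ± 0.16 for SeV (7.33e-10), 0.49 ± 0.16 for CpGB (0.0119) and 0.46 ± 0.15 for LPS (0.00650). The effect of PAM on Ccl12 was -1.02 ± 0.17 (edgeR adjusted p = 4.31e-08, with 17.5% of genes called lower) and that of Zymosan -0.59 ± 0.20 (adjusted p = 0.0121, 20.1%). These 21 still hold the steps into PAM + Zymosan, at 0 UMIs, so both sizes depend on how a count of 0 is fitted. Over 20 backgrounds without it, PAM gave -0.91 ± 0.14 (edgeR adjusted p = 1.42e-08, 17.1% of genes lower) and Zymosan -0.53 ± 0.15 (adjusted p = 0.00249, 19.6%). cGAMP (1.29 ± 0.14) and SeV (0.93 ± 0.14) also passed there, whereas LPS (0.20, edgeR adjusted p = 0.202) and CpGB (0.31, adjusted p = 0.0982) did not. Limma on log2 CPM over 21 backgrounds gave -0.74 for PAM (adjusted p = 1.68e-11) and -0.46 for Zymosan (2.72e-05), and LPS (0.01, 0.931) and CpGB (0.15, 0.227) did not pass in it either. Summed monocyte markers ranged over the group means from 132 CPM in PAM + Zymosan to 949 in PAM + HMW + SeV, which holds a library that stands apart, and correlated with the Ccl12 group means at r = 0.550. Without the 6 such libraries PAM + HMW + SeV stood at 511 CPM, the highest group was HMW + SeV + CpGB at 733, and r was 0.640. Genes of this list moved in opposite ways, with Ccr2 at 172 CPM in Ctrl and 34.0 on average over all libraries and Ly6c2 at 30.7 and 147. The macrophage sum correlated with the Ccl12 means at 0.402, the dendritic sum at -0.419 and the neutrophil sum at -0.359. The neutrophil sum ranged from 419 to 798. Their part in the Ccl12 results was not tested.

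**Figure D3:**
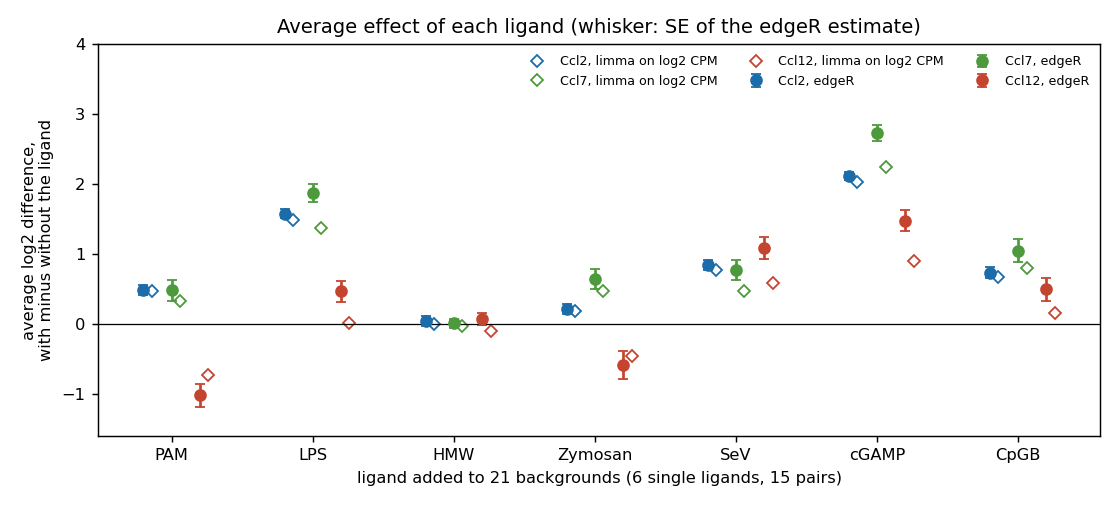
Average log2 difference with minus without each ligand over 21 backgrounds (vertical axis) for each of the 7 ligands, by gene; filled dots are edgeR estimates with SE whiskers and open diamonds limma on log2 CPM. For Ccl12, PAM lies at -1.02 where Ccl2 and Ccl7 both lie at 0.48.

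Background by background, adding cGAMP was called to raise Ccl2 in 20 of 22, Ccl7 in 19 and Ccl12 in 9 (7.81% of all genes and backgrounds). Adding SeV did so in 7, 5 and 7 (4.09%), CpGB in 10, 8 and 1 (3.82%) and HMW in 2, 1 and 0 (0.656%). LPS raised Ccl2 in 16 and Ccl7 in 14 (8.73%) and lowered neither. Ccl12 was called higher with LPS in 7 backgrounds and lower in 6 (5.74% of all genes and backgrounds called lower). PAM raised Ccl2 and Ccl7 in 6 backgrounds each (4.21%) and lowered Ccl12 in 4 (2.60%). Zymosan raised Ccl2 in 5 and Ccl7 in 3 (4.01%), and lowered Ccl2 in 4 and Ccl12 in 2 (1.95%). Without the 6 libraries that stand apart, HMW was called in 0 backgrounds for each member. In the order Ccl2, Ccl7 and Ccl12, the calls of a rise then numbered 19, 19 and 9 for cGAMP, 9, 4 and 7 for SeV, 10, 9 and 1 for CpGB, and 17, 14 and 7 for LPS. PAM then raised Ccl2 in 6 and Ccl7 in 5 and lowered Ccl2 in 1 and Ccl12 in 6. Zymosan raised Ccl2 in 6 and Ccl7 in 2 and lowered Ccl2 in 4 and Ccl12 in 2, and LPS lowered Ccl12 in 6.

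The sign of the LPS effect on Ccl12 went with the background. Among the 22, 11 held SeV or cGAMP and 11 held neither, a division made from the labels after the values had been seen. In the 11 with neither, Ccl12 means ran from 0 to 39.2 CPM without LPS and from 28.9 to 74.4 CPM with it, and the mean was higher with LPS in 11 of 11. In the 11 with SeV or cGAMP, means ran from 51.9 to 166 CPM without LPS and from 20.8 to 67.5 CPM with it, and the mean was lower with LPS in 11 of 11. The 2 sets of backgrounds did not overlap without LPS and overlapped with it. All 7 calls of a rise lay among the former and all 6 of a fall among the latter. Limma's average log2 effect of LPS on Ccl12 was 1.33 without SeV or cGAMP and -1.15 with either, a difference of -2.48 ± 0.19 (SE, limma adjusted p = 5.47e-27), where 21.7% of all tested genes had a lower LPS effect with SeV or cGAMP at the same threshold.

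Single backgrounds show the size of the fall. Ccl12 stood at 115, 161 and 164 CPM with SeV and at 25.1, 37.8 and 25.2 with LPS + SeV, with no overlap (-2.33 ± 0.46, edgeR adjusted p = 2.6e-05). With SeV + cGAMP it stood at 197, 121 and 181 CPM and with LPS + SeV + cGAMP at 17.6, 22 and 32.9 (-2.73 ± 0.46, edgeR adjusted p = 5.5e-07). In that same triplet Ccl2 rose from 304, 262 and 373 CPM to 804, 972 and 790 (1.45 ± 0.22, edgeR adjusted p = 1.31e-08), so the same libraries were the higher ones for Ccl2 and the lower ones for Ccl12. With cGAMP alone Ccl12 stood at 193, 87.6 and 110 CPM and with LPS + cGAMP at 17.5, 76.1 and 49.6 (-1.30 ± 0.43, edgeR adjusted p = 0.0238), again without overlap.

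For Ccl2 and Ccl7, LPS raised the mean in 11 of 11 backgrounds of both kinds, by less on the log2 scale where SeV or cGAMP was present. In CPM the order was the opposite: the median of the Ccl2 means went from 48.6 to 327 with neither and from 290 to 732 with SeV or cGAMP, and that of Ccl7 from 11.8 to 87.1 and from 55.1 to 200. The limma effect on Ccl2 was 2.18 without and 0.88 with SeV or cGAMP (difference -1.29 ± 0.11, adjusted p = 3.15e-22), and on Ccl7 1.81 and 0.99 (difference -0.81 ± 0.18, adjusted p = 8.22e-05).

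**Figure D4:**
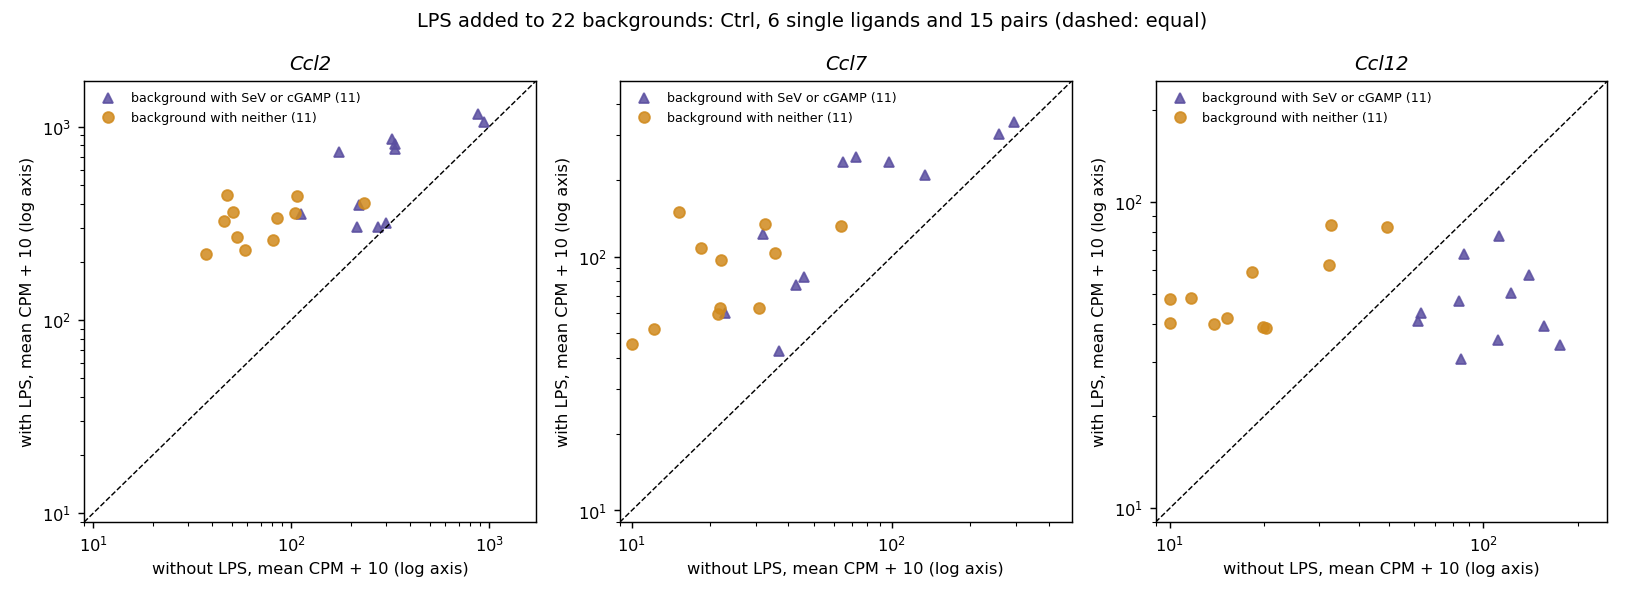
Mean CPM + 10 with LPS (vertical, log axis) against the same background without LPS (horizontal, log axis), 22 points per gene, triangles for the 11 backgrounds with SeV or cGAMP and circles for the 11 with neither; the dashed line marks equal levels. All points of Ccl2 and Ccl7 lie above the line, whereas the Ccl12 triangles lie below it and the circles above.

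The PAM effect on Ccl2 and Ccl7 also differed between the 2 kinds of background. In backgrounds with SeV or cGAMP the limma effect of PAM was 0.78 on Ccl2 (adjusted p = 2.85e-17) and -1.03 on Ccl12 (adjusted p = 1.06e-11), and in backgrounds with neither 0.16 (0.149) and -0.36 (0.0374). For Ccl12 the backgrounds with neither had a median mean of 22.6 CPM without PAM, a few UMIs per library, so that a fall there has little room and is shrunk by the prior count. No division of the PAM effect on Ccl12 is therefore read from these values. The 4 backgrounds in which PAM was called to lower Ccl12 held SeV or cGAMP, but edgeR's estimates were as negative, without a call, with CpGB (39.2 to 8.32 CPM, -2.14, adjusted p = 0.223) and HMW + CpGB (22.6 to 4.25 CPM, -1.99, adjusted p = 0.373). In LPS + SeV (0.06) and LPS + cGAMP (-0.37) they were near 0 or small. Among the called backgrounds, Ccl12 stood at 56.4, 64.2 and 35 CPM in PAM + SeV, below the 3 SeV libraries (-1.52 ± 0.42, edgeR adjusted p = 0.00535). It stood at 41.3, 51.6 and 60.4 CPM in PAM + SeV + cGAMP, below the 3 of SeV + cGAMP (-1.67, adjusted p = 0.000312), while Ccl2 stood at 979, 749 and 862 CPM there, above them. The difference of the PAM effect between the 2 kinds of background was 0.62 ± 0.11 for Ccl2 (limma adjusted p = 1.13e-05, 3.45% of genes higher), 0.85 ± 0.18 for Ccl7 (0.000384) and -0.68 ± 0.19 for Ccl12 (0.0150, 1.33% lower). The last of these was lost without replicate 1 (adjusted p = 0.132), without replicate 2 (0.233) or with a prior count of 0.5 (0.198).

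Zymosan changed the sign of its effect on Ccl2. With SeV alone Ccl2 stood at 277, 276 and 244 CPM and with Zymosan + SeV at 97.3, 99.4 and 111 (-1.32 ± 0.35, edgeR adjusted p = 0.00553). With cGAMP it fell from 339, 304 and 325 to 180, 141 and 174 CPM (-0.96 ± 0.28, adjusted p = 0.0206). Both pairs lay wholly below the ligand without Zymosan. With LPS, by contrast, it rose from 208 to 432 CPM in the mean, and with CpGB from 97.0 to 224 (1.08 ± 0.32, edgeR adjusted p = 0.0164, with overlapping libraries). The limma effect of Zymosan on Ccl2 was 0.81 in the 11 backgrounds with neither SeV nor cGAMP and -0.44 in the 11 with either, a difference of -1.25 ± 0.11 (adjusted p = 3.47e-19, 5.51% of genes lower). The 5 calls of a rise lay among the former and the 4 of a fall among the latter. One of the rises, from 70.8 CPM in PAM + HMW to 229 in PAM + HMW + Zymosan, includes a library that stands apart, and the mean was 156 without it. The difference for Ccl12 was -0.96 ± 0.19 (limma adjusted p = 8.48e-05), with the same limit on a fall from low levels, and for Ccl7 -0.75 ± 0.18 (0.00221). The last did not pass without replicate 2 (-0.64, adjusted p = 0.0794). CpGB split Ccl12 in the same direction: its mean was higher with CpGB in 11 of 11 backgrounds with neither and lower in 9 of 11 with SeV or cGAMP. The limma effects were 0.82 (adjusted p = 6.97e-08) and -0.34 (0.0430), a difference of -1.16 ± 0.19 (adjusted p = 1.81e-07, 9.30% of genes lower). In edgeR's test of single backgrounds, 1 rise was called with neither and 0 falls with SeV or cGAMP. The backgrounds with neither had a median Ccl12 mean of only 9.86 CPM without CpGB. The CpGB effects on Ccl2 (0.73 and 0.68) and Ccl7 (0.73 and 0.92) did not differ past the threshold, and neither did those of HMW on any member.

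The ratios between members within the same libraries were also compared, over all 21 backgrounds together and without reference to Ctrl. A permutation test with 100000 resamples over the 21 backgrounds, added after the data were seen, was adjusted over 21 tests. The smallest adjusted p it gave was 2.6e-05, shared by tests at the smallest p the resamples allow. Ccl2 over Ccl12 rose by a log2 value of 1.47 with LPS (up in 19 of 21 backgrounds), 1.25 with PAM (20 of 21), 1.10 with cGAMP (18 of 21) and 0.65 with Zymosan (17 of 21), each at that smallest value. CpGB moved it by 0.51 (permutation adjusted p = 0.000525, up in 10 of 21). HMW and SeV did not move it past the threshold (permutation adjusted p = 0.349 and 0.202). Ccl7 over Ccl12 rose with the same ligands, by 1.39 with LPS, 1.11 with PAM, 1.37 with cGAMP and 0.97 with Zymosan, each again at the smallest value, and by 0.65 with CpGB (permutation adjusted p = 0.000373). It was up in 18, 15, 19, 19 and 15 of 21 backgrounds in that order. The ratio of Ccl2 to Ccl7 changed by -0.32 with Zymosan (permutation adjusted p = 0.0143), by 0.29 with SeV (0.0229) and by -0.28 with cGAMP (0.0301); the last turned to 0.26 with a pseudocount of 50 CPM in place of 10.

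Over the 64 group means of log2 CPM, Ccl2 and Ccl7 correlated at a Pearson r of 0.940 and a Spearman rho of 0.937, and each was the other's closest gene of all those tested. Ccl2 and Ccl12 correlated at 0.545 and 0.438, and Ccl7 and Ccl12 at 0.498 and 0.450. Groups share ligands, so these values are descriptions, without a p. In the 38 conditions with PAM or LPS the median of the Ccl12 group means was 31.4 CPM and the highest 74.4, and in the 25 without them the median was 76.2 and the highest 166. For Ccl2 the medians were 336 and 233 CPM, in the opposite order.

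**Figure D5:**
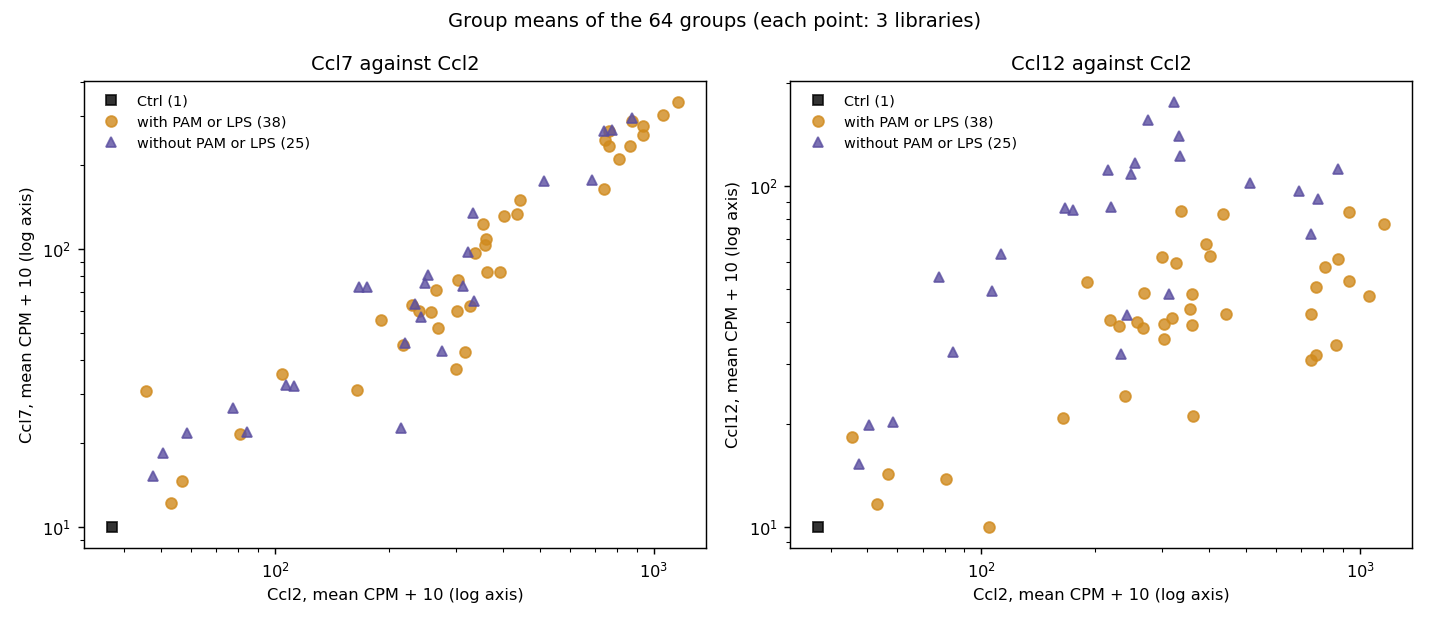
Group means of Ccl7 (left) and Ccl12 (right) against Ccl2, all as mean CPM + 10 on log axes; each point is a group of 3 libraries, circles with PAM or LPS (38), triangles without (25), square Ctrl. Ccl7 follows Ccl2 along 1 line in both sets, whereas for Ccl12 the groups with PAM or LPS stay at or below 74.4 CPM.

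The genes most like each member were read from the same 64 means. For Ccl2 the closest, other than Ccl7, were Tnfsf15, a TNF family cytokine (r = 0.907), Ripk2, the kinase that signals downstream of NOD receptors (0.899), Tiparp (0.882), Sec24b (0.879) and Pla1a (0.873). For Ccl7 they were Tnfsf15 (0.902), Rars (0.885), Sec24b (0.862), Polr2g (0.855) and Ripk2 (0.850). For Ccl12 none of these was among the closest 5, which were Fgl2 (0.897), Cited2 (0.870), Cxcl9 (0.861), a chemokine known for its induction by interferon-gamma, Gm14446 (0.841) and I830012O16Rik (0.837).

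In triplets, Ccl2 peaked with LPS + cGAMP + CpGB at 1166, 939 and 1338 CPM (1148 ± 200, SD; 42.5-fold over Ctrl, edgeR adjusted p = 4.83e-28). Its lowest triplet was PAM + HMW + CpGB, at 34.3, 35.7 and 70.3 CPM. The peak was not above cGAMP + CpGB beyond the test (0.42 ± 0.19, edgeR adjusted p = 0.285). Ccl7 peaked in the same triplet at 444, 226 and 311 CPM (327 ± 110; at least 27.7-fold) and was likewise lowest in PAM + HMW + CpGB (4.57 CPM). Summed macrophage markers were lowest, at 1888 CPM, in LPS + cGAMP + CpGB, the group where Ccl2 and Ccl7 were highest. The list did not move as 1: Csf1r stood at 1718 CPM in Ctrl and 810 on average over all libraries, and Fcgr1 at 60.7 and 302. The part of these markers in the result was not tested. Ccl12 peaked with HMW + SeV + cGAMP at 107 ± 55.3 CPM, or 138 without the library that stands apart, and was lowest in PAM + HMW + CpGB (4.25 CPM).

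By the rule for a triplet above its 3 pairs, 2 triplets passed for Ccl2, 1 for Ccl7 and 0 for Ccl12 (0.0115% of all genes and triplets), and none of the calls held without the 6 libraries that stand apart. HMW + SeV + CpGB gave 896, 235 and 376 CPM of Ccl2 (1.19 ± 0.26 over its highest pair, edgeR adjusted p = 0.00918; 0.53 without the library, adjusted p = 1) and 334, 48.0 and 113 CPM of Ccl7 (2.03 ± 0.46, adjusted p = 0.0156; 1.11 without it, adjusted p = 1). In both genes the first library was the high one. PAM + HMW + Zymosan gave 376, 132 and 179 CPM of Ccl2 (1.26 ± 0.33, edgeR adjusted p = 0.0301; 0.82 without its first library, adjusted p = 1). In the group whose outlying library goes the other way, HMW + cGAMP + CpGB, Ccl2 stood at 256, 919 and 860 CPM and Ccl7 at 39.4, 246 and 216, so that the mean of Ccl2 was 678 CPM with the library and 889 without it. No triplet was below its 3 pairs for any member (0% of all genes and triplets). The mean of a triplet lay above the highest of its 3 pair means in 10 of 35 for Ccl2, 15 for Ccl7 and 3 for Ccl12.

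Three-way interactions, which ask whether the pairs and single ligands add up on the log2 scale, passed with a positive sign in 1 of 35 triplets for Ccl2, 0 for Ccl7 and 3 for Ccl12 (0.803% of all genes and triplets), and with a negative sign in none for Ccl2 (0.130%). Ctrl enters this contrast with a minus sign, so its counts of 0 fix the fitted sign as positive for Ccl7 and Ccl12, and nothing is read from the sign of their calls. For Ccl2 this was LPS + SeV + cGAMP (2.88 ± 0.72, edgeR adjusted p = 0.00322). For Ccl12 it was the same triplet (edgeR adjusted p = 0.0455), LPS + SeV + CpGB (0.0390) and SeV + cGAMP + CpGB (0.0454). The Ccl12 calls lay close to the threshold, and DESeq2 called 0 of the 35 and limma 1.

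The other genes of the chemokine cluster were hardly counted. Ccl8 (MCP-2) gave 95 UMIs in 68 libraries, Ccl1 3 and Ccl11 0, and none of them passed the filter. Of the receptor list, Ccr2, the receptor for all 3 members, was called lower than Ctrl in 60 of 63 conditions (9.03% of all tests of genes and conditions), from 172 ± 42.6 CPM in Ctrl (n = 3) to 4.72 in LPS + Zymosan + cGAMP. Its average effect over 21 backgrounds was -1.52 with PAM, -0.95 with cGAMP, -0.83 with LPS and -0.76 with Zymosan, each past edgeR's test. SeV did not pass (0.36, edgeR adjusted p = 0.0692), nor did CpGB (-0.24, 0.302) and HMW (0.09). Ccr1, a receptor for Ccl7, was lower than Ctrl in 32 conditions and higher in none, from 167 ± 39.0 CPM in Ctrl. Its average effect was nonetheless 1.49 with Zymosan (edgeR adjusted p = 3.09e-51), against -0.56 with PAM, -0.44 with LPS and -0.30 with CpGB, and its highest group mean was 313 CPM, in Zymosan + cGAMP. Ccrl2, an atypical receptor that binds chemerin, was higher in 62 of 63, from 111 CPM in Ctrl to 2382 in PAM + HMW + cGAMP. Ccr3 (50 UMIs) was not tested, and Ackr1 and Ackr2 were not analysed here.

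Genes of the NF-kB and interferon pathways were counted over the same 21 backgrounds; no difference between the lists was tested. Of all tested genes, the shares called higher and lower were 19.9% and 17.5% with PAM, 28.7% and 27.8% with LPS, 17.2% and 16.4% with CpGB, 27.4% and 28.3% with cGAMP, 19.0% and 13.7% with SeV, 20.4% and 20.1% with Zymosan and 7.61% and 2.14% with HMW. Of 11 NF-kB pathway genes, 10 rose and none fell on average over 21 backgrounds with PAM (median log2 effect 0.68), 9 and 0 with LPS (0.52), 8 and 0 with CpGB (0.49), 8 and 0 with cGAMP (0.24) and 5 and 1 with SeV (0.12). Zymosan (3 and 2) and HMW (2 and 0) moved fewer. Of 11 interferon pathway genes, 8 rose and 2 fell with SeV (0.48), 8 and 1 with LPS (0.42), 8 and 2 with cGAMP (0.27), 6 and 2 with CpGB (0.21) and 3 and 3 with PAM (-0.04), the last near the shares of all genes. Zymosan raised none and lowered 5 (-0.13), and HMW raised 4. The medians over all tested genes lay between -0.04 and 0.02. The most abundant NF-kB list genes were Nfkbia, the inhibitor of NF-kB (0.68 with PAM, 0.01 with SeV), Tnfaip3, a deubiquitinase that restrains the pathway (0.99 with PAM), and Zfp36, which destabilizes cytokine mRNAs. Of the interferon list they were Irf7 (0.02 with PAM, 0.75 with SeV), Stat2 and Irf1 (-0.22 and 0.71). Ifnb1, interferon-beta itself, had an average effect of 3.26 with cGAMP, 2.52 with SeV, 0.88 with CpGB and 0.82 with LPS, each past edgeR's test.

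Of 15 other chemokines, 14 were tested, over the same 21 backgrounds and against the same shares of all genes. With PAM and with LPS 11 rose and 3 fell (medians 0.78 and 0.94), with CpGB 11 and 2 (0.86), with cGAMP 9 and 4 (0.23), with SeV 8 and 3 (0.15), with Zymosan 8 and 2 (0.12) and with HMW 5 and 0 (0.11). Ccl5, Ccl4 and Ccl3 were the most abundant and were higher than Ctrl in 59, 61 and 60 of 63 conditions (14.3% of all tests of genes and conditions). Cxcl9, which was among the genes closest to Ccl12, fell on average with PAM (-0.58), Zymosan (-0.56) and CpGB (-0.57) and rose with LPS (0.86), SeV (1.46) and cGAMP (1.79), each past edgeR's test. The CpGB effect on Ccl12 was 0.49 over the same 21 backgrounds, a call that was lost over 20 (0.31) and in limma (0.15).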

How the data were processed

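The deposited values are whole-number UMI counts per gene symbol, made by the authors without normalization, per the labels. The submitters' processing notes name BWA 0.7.15 and the mouse build mm10. The rule for collapsing UMIs and for reads that match several genes is not given in the sources used here. Low counts were removed by filterByExpr, libraries scaled by TMM, and 1 quasi-likelihood model with a coefficient per group fitted to all libraries (edgeR 4.0.16, R 4.3.3, 128 residual degrees of freedom). Benjamini-Hochberg adjustment ran over the 4720 tested genes within each contrast. Calls used an adjusted p under 0.05, and against Ctrl, both singles or all 3 pairs also a log2 difference of 1. Log2 CPM used a prior count of 2. Limma 3.58.1 and DESeq2 1.42.0 were alternatives. Tests were checked on simulated data.

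The members and lists were chosen with earlier results of these data known. The split by SeV or cGAMP, the ratio test, the 21- and 20-background averages, limma and the fit without 6 libraries were chosen after the data were seen. The text names the members in Ctrl and every single ligand, their highest and lowest pairs and triplets, called pairs and triplets, the strongest interactions, the 5 genes with the highest r, and list genes by mean CPM; single backgrounds in the split were chosen after their values were seen. CPM ± SD are over 3 libraries, and floors cover counting error only. A gene of the receptor list is not reported here.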

Additional observations from a re-analysis of the deposited data

Results flagged for a closer look

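The effect of a ligand on a member differed between the 11 backgrounds with SeV or cGAMP and the 11 with neither past the threshold in 10 of 15 tests, 2 of which are set aside below (limma on log2 CPM, Benjamini-Hochberg over all tested genes), each given here as the log2 effect with SeV or cGAMP minus that with neither. Over all tested genes the difference was called negative for 21.7% with LPS, 5.51% with Zymosan, 1.33% with PAM and 9.30% with CpGB, and positive for 3.45% with PAM. For LPS the differences were -1.29 for Ccl2, -0.81 for Ccl7 and -2.48 for Ccl12. The effect of LPS on Ccl12 was negative in the first kind of background and positive in the second (-1.15 and 1.33). For Zymosan they were -1.25 for Ccl2, -0.75 for Ccl7 and -0.96 for Ccl12, with effects of opposite sign for Ccl2 (-0.44 and 0.81). For PAM they were 0.62 for Ccl2, 0.85 for Ccl7 and -0.68 for Ccl12. Ccl12 stood at a median of 22.6 CPM in the backgrounds with neither to which PAM or Zymosan was added, so a fall there has little room, and no division is read from these 2 Ccl12 differences, which leaves 8. For CpGB the difference was -1.16 for Ccl12. HMW gave no difference past the threshold. Each of the 10 kept its direction and call without the 6 libraries that stand apart, over the backgrounds other than Ctrl and with a prior count of 5. PAM on Ccl12 lost its call with a prior count of 0.5 (adjusted p = 0.198), without replicate 1 (0.132) and without replicate 2 (0.233), and Zymosan on Ccl7 without replicate 2 (0.0794). The split was chosen after the values were seen, and backgrounds share libraries.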

How the results depend on the processing

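Of 3262 values set against an alternative, 3104 were labelled unchanged, 87 lost a call, 12 gained one, 58 counts or values moved and 1 turned. A count was labelled unchanged when it stayed within a set fold of the main one, and correlations between members always were. Fits that left out 1 library of Ctrl or a single ligand refitted only the contrasts holding that group. Part of the 3104 therefore could not change. Thinning every library to 46564 UMIs removed Ccl12 at the filter. It also left 4 differences between single ligands and 0 pairs above both for Ccl7, and 0 positive three-way interactions for Ccl2. Triplets above their pairs numbered 1 (Ccl2) and 0 (Ccl7). Average effects on Ccl7 over 22 backgrounds were 0.35 for PAM, 0.68 for Zymosan and 1.16 for CpGB, none past the test. The main fit over these 22 gave 0.54, 0.74 and 1.21, each past it. With Ctrl at 0 UMIs, neither set has a reliable size. Library size alone shifts the median of all genes against Ctrl by -0.30 (DESeq2's size factors by -0.13). It gave PAM 0.43 for Ccl7 over 22 backgrounds (edgeR adjusted p = 0.0769, against 0.54 and 0.0319 in the main fit). Pairs above both then numbered 3 for Ccl2, with 1 triplet for Ccl2. Without the filter, negative pair interactions numbered 5 for Ccl2 and 2 for Ccl7 and positive three-way ones 2 and 1. Without the 6 libraries that stand apart, they numbered 5, 2 and, for Ccl2, 2, and triplets above their pairs 0 for Ccl2 and 0 for Ccl7. Limma gave 7 negative pair interactions for Ccl2, 1 negative three-way interaction for Ccl2, positive ones of 4 (Ccl2), 1 (Ccl7) and 1 (Ccl12), triplets above of 1 (Ccl2) and 0 (Ccl7), and 22-background effects on Ccl12 of 0.094 for LPS (adjusted p = 0.405), -0.70 for PAM and -0.41 for Zymosan. DESeq2 gave -1.01 for PAM and -0.46 for Zymosan on Ccl12, and 0 (Ccl12) and 1 (Ccl7) positive three-way interactions. Over 21 backgrounds the PAM and Zymosan effects on Ccl12 were -1.02 and -0.59, and over 20 they were -0.91 and -0.53, with LPS (0.20) and CpGB (0.31) on Ccl12 and Zymosan on Ccl2 (0.16) no longer past the test. The change of Ccl2 over Ccl7 with cGAMP turned to 0.26 with a pseudocount of 50 CPM (permutation adjusted p = 0.00126). Of the 5 genes most like Ccl7, 3 stayed with Spearman's rho and 3 with a prior count of 0.5, where the PAM difference for Ccl12 between backgrounds was -0.64 and not called. The causes were not tested.

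Leaving out replicates in turn gave 5 to 10 single ligand differences for Ccl7, 0 to 1 (Ccl7) and 3 to 5 (Ccl12) negative pair interactions, 3 to 5 (Ccl2) and 1 to 3 (Ccl7) pairs above both, 1 to 2 (Ccl2) and 0 to 3 (Ccl12) positive three-way interactions, 0 to 2 (Ccl2) and 0 to 1 (Ccl7) triplets above their pairs, average effects of 0.40 to 0.65 for PAM on Ccl7 and 0.18 to 0.31 for Zymosan on Ccl2, and differences between backgrounds of -0.87 to -0.56 (PAM, Ccl12) and -0.97 to -0.64 (Zymosan, Ccl7). The replicate block left 54, 50 and 52 conditions called for Ccl2, Ccl7 and Ccl12, the same numbers as the main fit. Whether they were the same conditions was not compared. The block changed no call of the average effects that include Ctrl. The samples were not treated as paired: 0.116% of 6048 same-numbered pairs had a correlation of deviations over 0.1 (mean r 0.00828). As a hint from the data of a weak shared effect, 167 libraries correlated best with their own number. Depth limits Ccl7 and Ccl12 in Ctrl, where 0 UMIs give only lower bounds.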

Other observations

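Ccl2 was called higher than Ctrl with CpGB alone but not with HMW + CpGB (74.4 CPM, edgeR adjusted p = 0.0965), PAM + CpGB or PAM + HMW + CpGB, the last 2 of which were its lowest pair and triplet. PAM + CpGB gave 28.6, 22.2 and 56.0 CPM against 48.5, 123 and 120 with CpGB alone, with overlapping libraries (-1.55 ± 0.52, edgeR adjusted p = 0.109). HMW + CpGB against CpGB alone gave -0.47 ± 0.37 (edgeR adjusted p = 0.9996, overlapping libraries), so neither pair differed from CpGB alone past the test. Adding Zymosan to PAM + CpGB gave a Ccl2 mean of 155 CPM, without overlap (2.05 ± 0.49, edgeR adjusted p = 0.00136).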
